A study of Mus musculus with 8 samples.

Results

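The genes described here are a set of 10, grouped as mesothelin, mucins and secretory epithelial genes. Not all of them have a known role at the cell surface or in secretion. They are mesothelin (Msln), the membrane mucins Muc1, Muc4 and Muc16, Plac8, Slc44a4, Misp, Arhgap8, Bcl2l15 and Scgb1a1. They were taken by gene name from the deposited tables of 55487 genes, after earlier results on the same libraries had shown their levels over the lines. Each contrast of the lines therefore counts as used in choosing them, and their levels are given as a description without p-values. Of the 10 genes, 9 had counts, and Scgb1a1 had none in any library.

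Bulk RNA-seq was made from 4 mouse lung squamous cell carcinoma (LUSC) lines out of genetically engineered mouse models, in a series on loss of ACKR3, an atypical chemokine receptor. The PLA lines are PLA4 and PLA, and the PL lines are PL12 and PL1, with 2 libraries per line and 8 in all. The labels do not spell out the letters, the alleles, the promoter of any Cre, the age of the mice or a treatment, and do not say whether a line is 1 clone or whether its libraries come from separate cultures. The spread between the libraries of a line may therefore be technical. Ackr3 had 0.387 and 0.228 CPM (counts scaled to library size) in PLA4 and 0.0488 and 0.0254 CPM in PLA, against 25.3 and 26.3 CPM in PL12 and 86.3 and 33.2 CPM in PL1. Every PLA-line library lay below every PL-line library, so the level of Ackr3 fits the names of the lines. Libraries held 48857960 to 142458281 counts. In PLA4 and PL1 the libraries of a line stood apart: 1416 and 1174 of 18648 genes differed over 2-fold between them on the log2(CPM + 1) scale, against 8 in PLA and 64 in PL12.

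Mesothelin is a lipid-anchored surface glycoprotein, normally made by mesothelial cells, and is high in several carcinomas, where it is pursued as a target for antibodies and engineered T cells. Membrane mucins are long, heavily O-glycosylated proteins that line the apical surface of simple and secretory epithelia, and in human cells mesothelin binds the mucin MUC16, also known as CA125. In the lung, club and goblet cells of the airway secrete gel-forming mucins and secretoglobins. Squamous carcinoma is instead defined by keratins and adhesion proteins of stratified epithelium.

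The stretches before the transcription starts of Muc1, Slc44a4, Muc4 and Muc16 are shown because their transcripts had different patterns over the lines, Muc16 running against the other 3. They are the 250 bases upstream of the RefSeq start on GRCm38.p6, written 5′ to 3′ on the strand of the gene, with capitals for each match to a searched motif.
Muc1 (chr3:89228806-89229055, + strand): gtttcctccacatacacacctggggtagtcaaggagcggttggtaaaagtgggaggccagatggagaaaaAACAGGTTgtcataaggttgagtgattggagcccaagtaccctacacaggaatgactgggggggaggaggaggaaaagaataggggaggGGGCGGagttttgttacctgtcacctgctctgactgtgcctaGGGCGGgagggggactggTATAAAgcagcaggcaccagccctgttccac
Slc44a4 (chr17:34914216-34914465, + strand): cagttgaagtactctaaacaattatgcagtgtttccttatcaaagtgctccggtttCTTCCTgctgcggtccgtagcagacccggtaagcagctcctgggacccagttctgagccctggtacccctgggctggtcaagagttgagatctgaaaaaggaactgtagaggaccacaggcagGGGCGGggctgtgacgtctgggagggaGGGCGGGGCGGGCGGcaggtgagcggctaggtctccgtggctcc
Muc4 (chr16:32735636-32735885, + strand): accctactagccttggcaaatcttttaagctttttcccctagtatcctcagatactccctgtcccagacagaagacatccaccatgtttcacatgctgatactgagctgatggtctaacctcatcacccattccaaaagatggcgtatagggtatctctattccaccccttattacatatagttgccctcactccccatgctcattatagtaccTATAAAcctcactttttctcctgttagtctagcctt
Muc16 (chr9:18674604-18674853, - strand): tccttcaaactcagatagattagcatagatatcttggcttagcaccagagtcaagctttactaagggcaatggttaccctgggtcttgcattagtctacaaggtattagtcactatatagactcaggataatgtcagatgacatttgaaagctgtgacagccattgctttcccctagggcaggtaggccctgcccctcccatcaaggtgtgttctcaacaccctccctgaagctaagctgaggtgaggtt

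RefSeq's table held 7 starts for 6 of the 10 genes, with 2 for Plac8, and no entry was used for Msln, Misp, Arhgap8 or Scgb1a1. The motifs were searched on both strands. The grainyhead (GRHL) motif AACCNGTT matched once, at -180 of Muc1, and is in 1.79% of the 32851 upstream stretches in the table. The TATA motif TATAAA lay at -31 of Muc1 and -36 of Muc4, 2 of the 7 starts, and is in 12.4% of all stretches. The GC box CCGCCC matched at -91 and -49 of Muc1 and at -71, -44, -39 and -35 of Slc44a4, where the last 3 share bases. It is in 32.7% of all stretches. The ETS core AGGAAG matched at -194 of Slc44a4 and -169 of Bcl2l15 and is in 29.5% of all. The AP-1 motif TGANTCA (6.75% of all), the STAT motif TTCNNNGAA (7.02%) and the FOXA motif TGTTTAC (3.17%) matched in none of the 7. No match of one motif overlapped that of another. Neither Plac8 stretch nor that of Muc16 held any searched motif. Thus no searched motif was common to all the genes whose levels ran together.

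**Figure D1:**
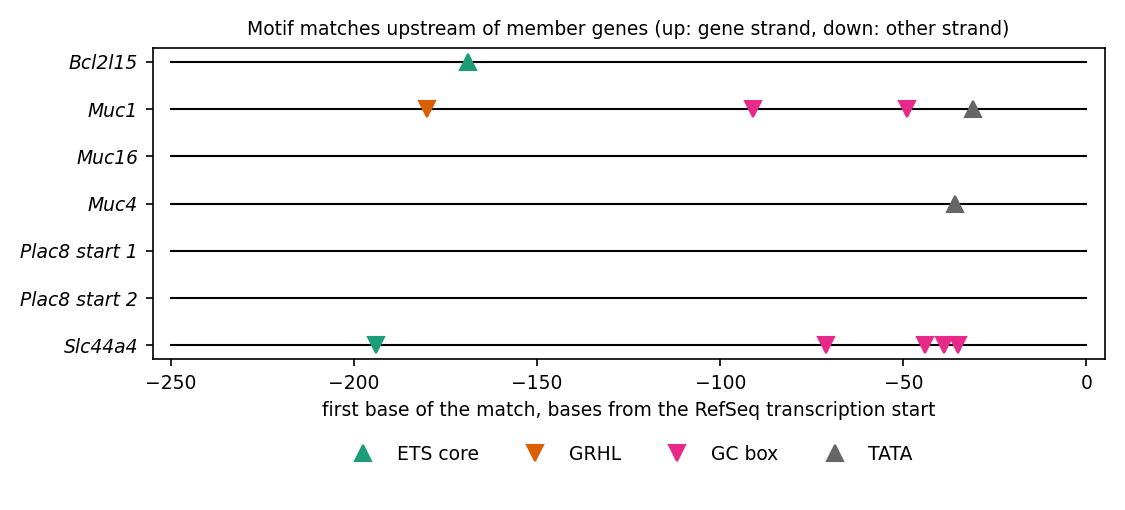
Positions of motif matches in the upstream stretches of member genes, in bases from the RefSeq transcription start on the horizontal axis, with 1 line per start, markers pointing up on the strand of the gene and down on the other strand. Muc1 and Slc44a4 hold several matches each, Muc4 and Bcl2l15 hold 1 each, and both Plac8 starts and Muc16 hold none.

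Across the 4 lines the genes followed 2 patterns. In 8 of the 9 detected genes every library of PLA and of PL12 lay above every library of PLA4 and of PL1. Within each family, then, 1 line was high and the other low, and the high lines fell on both sides of the ACKR3 design. Muc16 was the exception, with its highest levels in PLA4. The order was known when the genes were chosen. How many of all genes had PLA and PL12 above PLA4 and PL1 was not counted. The 8 of 9 therefore has no share over all genes beside it and is a description only. In bulk RNA, fewer cells making a transcript and less of it per cell cannot be told apart. Summed over the 10 genes, the level per transcript length, the authors' TPM, came to 35.0 and 19.8 in PLA4 and 1160 and 1200 in PLA, against 3112 and 2972 in PL12 and 6.99 and 71.3 in PL1.

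Msln (ENSMUSG00000063011.7, GRCm38 chromosome 17, 25748613 to 25754378, minus strand) overlaps no other annotated gene. It had 0.232 and 0.0346 CPM in PLA4 and 129 and 127 CPM in PLA, against 454 and 470.1 CPM in PL12 and 0.219 and 0.115 CPM in PL1. In the low lines this was 30 and 5 counts in PLA4 and 19 and 13 in PL1. The libraries of PLA4 and PL1 overlapped, while PLA and PL12 were apart from them and from each other. By line means, Msln was 957.9-fold lower in PLA4 than in PLA and 2774-fold higher in PL12 than in PL1. The first ratio ran between 550.3-fold without PLA4 replicate 2 and 3692-fold without PLA4 replicate 1, and the second between 2114-fold without PL1 replicate 2 and 4033-fold without PL1 replicate 1. The high lines differed as well: PLA averaged 128 ± 1.77 CPM and PL12 462 ± 11.2 CPM (SD, n = 2 libraries), a 3.62-fold higher level in PL12.

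**Figure D2:**
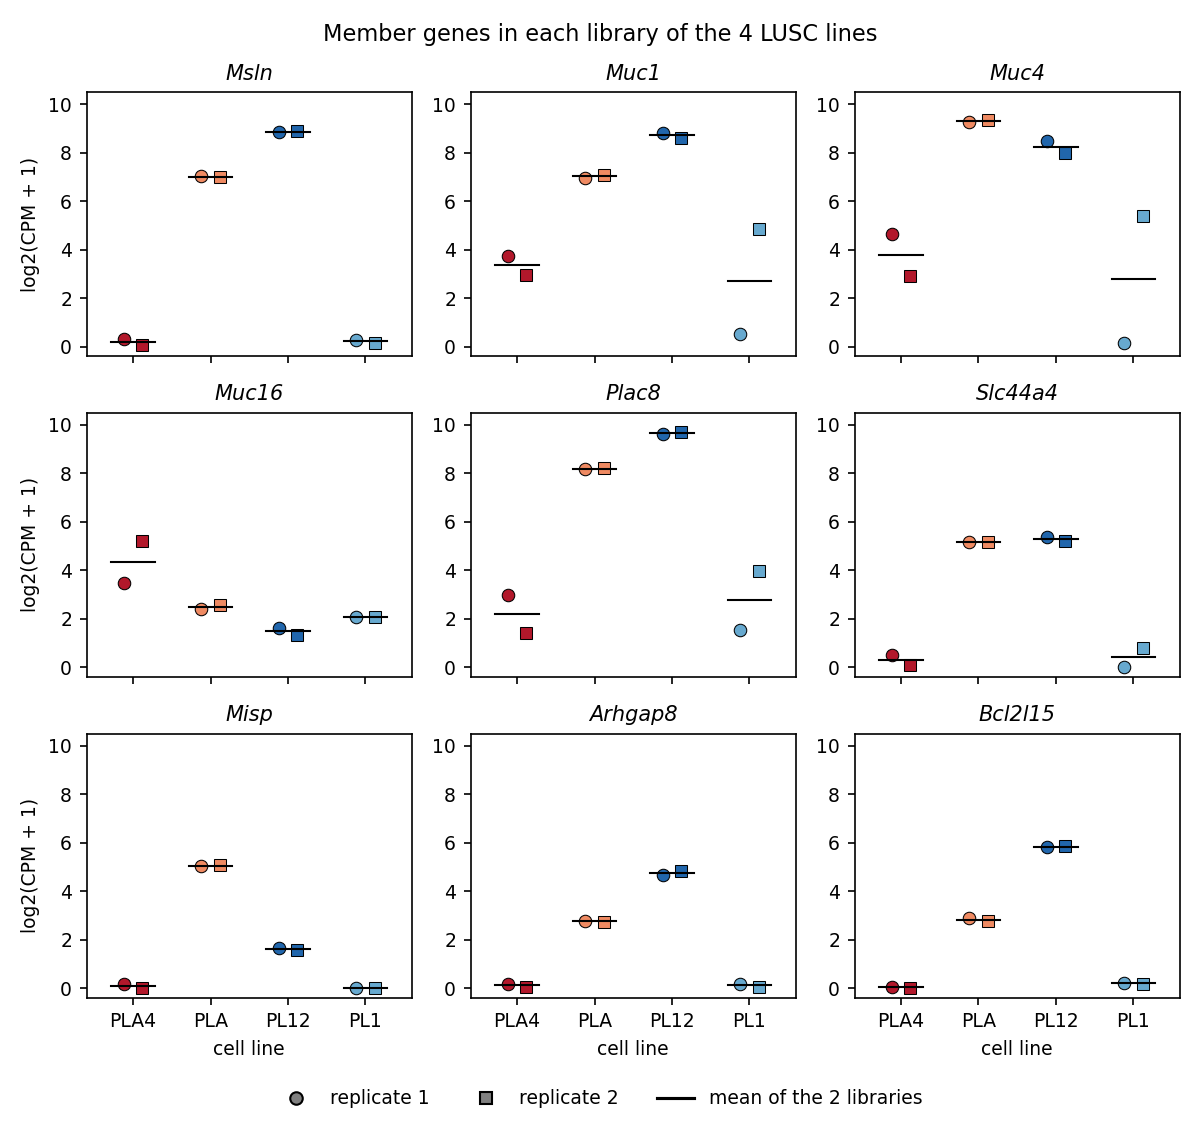
Level of the 9 detected member genes in each library, as log2(CPM + 1) on the vertical axis, with the lines PLA4, PLA, PL12 and PL1 along the horizontal axis, a circle for replicate 1, a square for replicate 2 and a bar for the mean of both. All panels but that of Muc16 show PLA and PL12 above PLA4 and PL1, and the panel of Muc16 shows PLA4 on top.

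Muc1, a transmembrane mucin of the apical surface of simple epithelia, lies on chromosome 3 (ENSMUSG00000042784.9, 89229057 to 89233381, plus strand). It had 12.4 and 6.79 CPM in PLA4 and 124 and 134 CPM in PLA, against 446 and 391 CPM in PL12 and 0.449 and 27.7 CPM in PL1. PL12 was highest and PLA next, with no overlap, and the PL1 libraries lay on both sides of those of PLA4. The line mean was 13.4-fold lower in PLA4 than in PLA. It was 29.8-fold higher in PL12 than in PL1, or 15.1-fold without PL1 replicate 1 and 931.9-fold without PL1 replicate 2. Unlike Msln, Muc1 was thus measured well above the floor in PLA4, with 1606 and 980 counts.

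Muc4, a large membrane mucin that can bind the receptor ERBB2, lies on chromosome 16 (ENSMUSG00000079620.13, 32735886 to 32782391, plus strand). It had 24.1 and 6.45 CPM in PLA4 and 617 and 643 CPM in PLA, against 353 and 252 CPM in PL12 and 0.115 and 40.6 CPM in PL1. Here PLA was above PL12 in both libraries, the reverse of Msln and Muc1. The level was 41.2-fold lower in PLA4 than in PLA, or 26.1-fold without PLA4 replicate 2 and 97.7-fold without PLA4 replicate 1. PL12 was 14.9-fold above PL1, a ratio set by the PL1 libraries: it was 7.46-fold without PL1 replicate 1 and 2628-fold without PL1 replicate 2. The exons of Muc4 share 627 bases with those of Muc20, a small mucin gene on the other strand, which is 5.33% of Muc4 and 15.6% of Muc20. The labels do not say that counting used strand, so reads in the shared bases are uncertain, and the authors' counts of Muc4 were not whole in 6 of 8 libraries. Muc20 had 3.42 and 0.388 CPM in PLA4 and 144 and 146 CPM in PLA, against 5.12 and 4.15 CPM in PL12 and 0 and 7.19 CPM in PL1. PLA was high for both genes, but Muc20 was low in PL12, where Muc4 was high.

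Muc16, the largest of the membrane mucins, lies on chromosome 9 (ENSMUSG00000109564.1, 18495455 to 18674530, minus strand). It had 10.2 and 36.5 CPM in PLA4 and 4.34 and 5.03 CPM in PLA, against 2.11 and 1.55 CPM in PL12 and 3.23 and 3.17 CPM in PL1. The order of the lines was PLA4, PLA, PL1 and PL12, with no overlap between neighbours. It was the 1 detected gene of the 9 in which all PLA-line libraries lay above all PL-line libraries. Over 21748 genes with at least 15 counts in all, 7.7% showed that order and 6.55% its opposite, so 1 of 9 is near the share over all genes. Over the 2 lines of each family, the mean and SD were 14.0 ± 13.2 CPM for PLA4 and PLA, against 2.52 ± 0.968 CPM for PL12 and PL1, 5.57-fold higher in the PLA lines. That ratio was 2.95-fold without PLA4 replicate 2 and 8.19-fold without PLA4 replicate 1. Per length Muc16 stayed low, at most 8.63 TPM in PLA4 and below 1 TPM in PL12 and PL1. In the lines with high Msln, PLA had 105.1 and 105.0 TPM of Msln beside 1.25 and 1.2 TPM of Muc16, and PL12 had 371 and 390.1 TPM of Msln beside 0.38 and 0.42 TPM of Muc16. PL1, with Msln near 0, had 0.86 and 0.73 TPM of Muc16, between the levels of PLA and PL12.

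Plac8 encodes a small cysteine-rich protein, also called onzin, and lies on chromosome 5 (ENSMUSG00000029322.12, 100553725 to 100572245, minus strand). It was the most abundant of the genes per length in PLA and PL12, with 759.9 and 789 TPM in PLA and 2211 and 2089 TPM in PL12. It had 6.97 and 1.67 CPM in PLA4 and 291 and 294 CPM in PLA, against 787 and 836 CPM in PL12 and 1.92 and 14.7 CPM in PL1. The libraries of PLA4 and PL1 overlapped. PLA4 was 67.6-fold below PLA, or 41.9-fold without PLA4 replicate 2 and 175-fold without PLA4 replicate 1. PL12 was 97.7-fold above PL1, or 55.3-fold without PL1 replicate 1 and 422-fold without PL1 replicate 2.

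Slc44a4, a choline-transporter-like protein known in human cells to carry thiamine pyrophosphate, lies on chromosome 17 (ENSMUSG00000007034.15, 34914466 to 34930436, plus strand). It had 0.410 and 0.0692 CPM in PLA4 and 35.5 and 34.5 CPM in PLA, against 41.1 and 36.3 CPM in PL12 and 0.0115 and 0.758 CPM in PL1. The high lines were closest for this gene, with PL12 1.11-fold above PLA. PLA4 was 146-fold below PLA, or 85.3-fold without PLA4 replicate 2 and 505.7-fold without PLA4 replicate 1. PL12 was 101-fold above PL1, or 51.1-fold without PL1 replicate 1. The ratio against PL1 replicate 1 alone rests on 1 count and is not given.

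Misp, an actin-binding protein that helps position the mitotic spindle, lies on chromosome 10 (ENSMUSG00000035852.11, 79820989 to 79830490, plus strand). It had 0.124 and 0.00692 CPM in PLA4 and 31.7 and 32.5 CPM in PLA, against 2.17 and 1.94 CPM in PL12 and 0 counts in both PL1 libraries. PLA was 15.6-fold above PL12, and PLA4 was 491.2-fold below PLA, or 259-fold without PLA4 replicate 2, which held 1 count. Against a floor of 3 counts over both PL1 libraries, PL12 was at least 137-fold higher than PL1. High levels of this gene were thus a feature of 1 line, PLA.

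Arhgap8, a GTPase-activating protein (ENSMUSG00000078954.9, chromosome 15, 84720052 to 84772207, plus strand), had 0.124 and 0.0415 CPM in PLA4 and 5.85 and 5.66 CPM in PLA, against 24.8 and 27.8 CPM in PL12 and 0.115 and 0.0441 CPM in PL1. Bcl2l15, a member of the BCL2 family of cell-death regulators (ENSMUSG00000044165.12, chromosome 3, 103832601 to 103854618, plus strand), had 0.0465 and 0 CPM in PLA4 and 6.41 and 5.78 CPM in PLA, against 55.6 and 57.1 CPM in PL12 and 0.173 and 0.132 CPM in PL1. Both genes were highest in PL12 and intermediate in PLA. PL12 was above PLA by 4.57-fold for Arhgap8 and by 9.24-fold for Bcl2l15. Arhgap8 was 69.6-fold lower in PLA4 than in PLA, between 46.5-fold without PLA4 replicate 2 and 139-fold without PLA4 replicate 1, and 330.5-fold higher in PL12 than in PL1, between 228-fold without PL1 replicate 2 and 597-fold without PL1 replicate 1. For Bcl2l15, PLA4 held 6 counts in all and lay 262.5-fold below PLA, or 131-fold without PLA4 replicate 2, and PL12 was 369.7-fold above PL1. Bcl2l15 shares 21% of its exonic bases with Gm43064 on the same strand, and its counts were not whole in 6 libraries, so they are uncertain. Gm43064 did not exceed 0.512 CPM in any library. In PLA4, however, it held 62.5 and 19.2 counts, against 6.34 and 0 for Bcl2l15. In PL1 it held 12.8 and 20.7 counts, against 14.59 and 14.55. The low levels of Bcl2l15, and the ratios to PLA4 and PL1, are therefore the most uncertain.

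Scgb1a1, the secretoglobin that defines club cells (ENSMUSG00000024653.2, chromosome 19, 9083636 to 9087958, minus strand), had 0 counts in all 8 libraries. A count of 0 allows up to 3 counts, or 0.0211 CPM in the deepest library and 0.0614 CPM in the shallowest, for counting error alone. The secretoglobin Scgb3a2 was likewise at 0 in all 8. Of the markers of mesothelium, Upk3b, Wt1, Lrrn4 and Calb2 stayed at or below 0.102 CPM in every library. The summed mesothelial list of 11 genes had 0.619 and 0.561 CPM in PLA4 and 3.59 and 3.26 CPM in PLA, against 26.3 and 23.6 CPM in PL12 and 0.495 and 2.72 CPM in PL1. Nearly all of the PL12 sum was Tbx18, at 24.6 and 22.4 CPM, and nearly all of the PLA sum was Upk1b. Upk1b had 0.248 and 0.104 CPM in PLA4 and 3.49 and 3.22 CPM in PLA, against 1.41 and 1.01 CPM in PL12 and 0.219 and 1.23 CPM in PL1. High Msln was thus measured with Upk3b, Wt1, Lrrn4 and Calb2 at or near 0, but with Upk1b in PLA and with Upk1b and Tbx18 in PL12. It was measured without Scgb1a1 or Scgb3a2, while other genes of airway secretory cells were present, as given with their list.

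The libraries of PLA and of PL12 were close for each gene, at most 1.16-fold apart in PLA and 1.40-fold in PL12. In PL1, replicate 2 was over 2-fold above replicate 1 on the log2(CPM + 1) scale for 3 genes, Muc1, Muc4 and Plac8. On plain CPM the gap was 61.6-fold for Muc1, 353-fold for Muc4, 65.9-fold for Slc44a4 and 7.64-fold for Plac8, while Msln was 1.91-fold lower in replicate 2. In PLA4, 3 genes were over 2-fold apart on the log2(CPM + 1) scale. On plain CPM, Muc4 and Plac8 were lower in replicate 2, by 3.74-fold and 4.18-fold, and Muc16 was 3.59-fold higher there. Genes with few counts in PLA4 were also lower in replicate 2 on plain CPM: Msln by 6.71-fold, Slc44a4 by 5.93-fold and Arhgap8 by 2.98-fold. Arhgap8 had 16 and 6 counts in PLA4, and its TPM ran the other way, at 0.18 and 0.22. Misp had 16 and 1 counts there.

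Other markers differed between the same libraries. In PL1, 8 fibroblast genes summed to 3.08 CPM in replicate 1 and 284.5 CPM in replicate 2, with Col1a1 at 0.575 and 254 CPM. Over 12 squamous and basal genes the sum was 23950 CPM in replicate 1 and 11710 CPM in replicate 2. In PLA4, 28 genes of simple and luminal epithelium summed to 7814 CPM in replicate 1 and 2667 CPM in replicate 2, where Muc1, Muc4 and Plac8 were also lower. The part of these differences in the levels of the mucins and Plac8 was not tested.

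**Figure D3:**
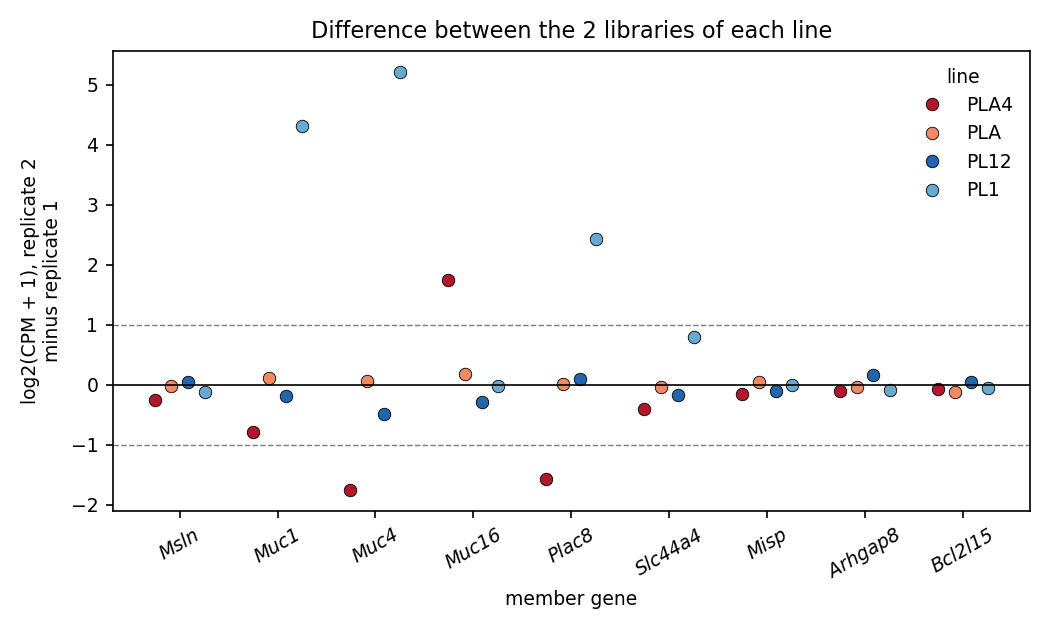
Difference between the libraries of each line for the 9 detected genes, as log2(CPM + 1) of replicate 2 minus replicate 1 on the vertical axis, with a dashed line at each side for a 2-fold gap and 1 colour per line. Muc1, Muc4 and Plac8 are far above 0 in PL1, Muc16 is above and Muc4 and Plac8 below the dashed lines in PLA4, and all points of PLA and PL12 lie between the lines.

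The genes also differed in how closely they followed each other. These coefficients are Pearson's r of log2(CPM + 1) over the 8 libraries, which share lines and fall into a high and a low pair of lines, so they describe that split and carry no p. Msln followed Slc44a4 (r = 0.985), Arhgap8 (0.979) and Plac8 (0.975), and Arhgap8 and Bcl2l15 ran closest of all pairs (0.995). Msln was less close to Muc1 (0.907) and Muc4 (0.846). Misp, high in 1 line, had r = 0.448 with Bcl2l15. Muc16 was negative with each of the others, from -0.637 with Plac8 to -0.233 with Misp.

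Outside the set, 11744 genes that reached 5 CPM in some library were ranked by the same measure of likeness. Closest to Msln was Slc45a3 (r = 0.9986), a solute carrier, with mean CPM of 3.82 in PLA4 and 13.5 in PLA, against 17.7 in PL12 and 4.16 in PL1. Next came Gprc5a, a retinoic acid-induced receptor of lung epithelium, at 94.95 CPM in PLA4 and 421 CPM in PLA, against 752 CPM in PL12 and 93.2 CPM in PL1. Both had the shape of Msln with a far smaller range. Sh3gl2, Pnpla2 and Dnm2 completed the nearest 5. Closest to Muc4 were Atp8b1 (0.997), a phospholipid flippase, and Pigr (0.988), the receptor that carries IgA across secretory epithelium. Pigr had 6.06 CPM in PLA4 and 183 CPM in PLA, against 60.0 CPM in PL12 and 13.3 CPM in PL1. It thus also had PLA above PL12, as Muc4 did. Muc1 was nearest to Apbb3, Pcgf5 and Csf1, Plac8 to Abcc4, Hap1 and Cdc42bpb, and the mean of the detected genes to Usp30, Tmem62 and Tspan1. Scgb1a1, with 0 counts, could not be ranked.

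Loss of ACKR3 is the comparison the series was made for. By the mean of line means, 6 of the 9 genes were lower in the PLA lines than in the PL lines and 3 were higher. Msln averaged 64.0 ± 90.3 CPM over PLA4 and PLA, against 231 ± 327 CPM over PL12 and PL1 (SD, n = 2 lines), 3.61-fold lower, and the SD exceeded the mean on both sides. Plac8 was 2.76-fold lower, Muc1 3.12-fold, Arhgap8 4.52-fold, Bcl2l15 9.23-fold and Slc44a4 1.11-fold. Muc4 was 2.00-fold higher in the PLA lines, Misp 15.7-fold and Muc16 5.57-fold. For every gene but Muc16 the lines of a family differed from each other by more than the families did, so the direction between families depends on which line is set against which. Without PL12, 0 of the 9 genes were lower in the PLA lines and all 9 were higher, and without PLA, 8 were lower. Msln, for example, was 767-fold higher in PLA than in PL1 and 3464-fold lower in PLA4 than in PL12.

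Related genes were then read in the comparisons of PLA4 with PLA and of PL12 with PL1, each from edgeR's quasi-likelihood test on all 8 libraries with Benjamini-Hochberg adjustment over 18648 genes and a threshold of 0.05. Log2 fold changes are given with an approximate standard error, the absolute change divided by the square root of the test's F value. Over all genes tested, 14.1% were called higher and 14.9% lower in PLA4 than in PLA, and 11.2% higher and 12.5% lower in PL12 than in PL1. The median log2 change was 0.04 for PLA4 against PLA and -0.03 for PL12 against PL1. The p-values rest on the spread between libraries. Call counts moved with single libraries, and the fewest came without a PLA library for PLA4 against PLA and, for most lists, without a PL12 library for PL12 against PL1. The range over the 8 fits that leave out 1 library stands beside each count.

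Of 7 other mucins tested, 2 were lower and 2 higher in PLA4 than in PLA (2 to 5 calls over the left-out libraries), with a median log2 change of -1.65. Muc13, a membrane mucin of the gut, fell in PLA4 (log2 change -9.67 ± 0.77, adjusted p = 0.00106 by edgeR) and was higher in PL12 than in PL1 (7.29 ± 0.77, adjusted p = 0.00267). It had 0.0232 and 0.00692 CPM in PLA4 and 13.2 and 12.7 CPM in PLA, against 1.94 and 1.49 CPM in PL12 and 0 and 0.0176 CPM in PL1, so PLA and PL12 were the high lines, as for most genes of the set. Muc15, like Muc16, was highest in PLA4, at 8.78 and 9.03 CPM in PLA4 against 0.569 and 0.449 CPM in PLA (4.13 ± 0.32, adjusted p = 0.000971 by edgeR). Both calls for Muc13 and that for Muc15 held in all 8 fits. Muc13 was the 1 other mucin called in PL12 against PL1, where the median was 0.19 (1 to 3 calls). The gel-forming Muc5b of airway goblet cells was low throughout, at 0.0465 and 0.173 CPM in PLA4 and 4.16 and 3.70 CPM in PLA, against 2.43 and 1.92 CPM in PL12 and 0.0345 and 1.18 CPM in PL1.

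Of 18 airway secretory markers tested out of 30, 7 were lower and 1 higher in PLA4 than in PLA (2 to 10 calls), with a median of -2.11. In PL12 against PL1, 3 were higher and 1 lower (1 to 9 calls), with a median of 1.04. Held in all 8 fits were Aldh1a1, an aldehyde dehydrogenase, higher in PLA4 than in PLA (3.41 ± 0.44, adjusted p = 0.00401 by edgeR), the antimicrobial lectin Reg3g, lower in PLA4, and the carbonyl reductase Cbr2, lower in PL12 than in PL1 (-4.21 ± 0.34, adjusted p = 0.00134 by edgeR). The club-cell cytochrome Cyp2f2 was not called in either, at 168 and 27.7 CPM in PLA4 and 447 and 466 CPM in PLA, against 5.57 and 5.12 CPM in PL12 and 0.0345 and 2.11 CPM in PL1. High Msln and mucins in PL12 were therefore not accompanied by high Cyp2f2 there, whereas in PLA both were high. The calls of Aldh1a1 and Cbr2 above ran against the direction of most calls in their comparisons. Except for Reg3g, calls in the more common directions did not hold in all 8 fits. Among these, Bcas1 was called in both comparisons. It had 1.31 and 0.263 CPM in PLA4 and 48.9 and 47.6 CPM in PLA, against 4.40 and 3.27 CPM in PL12 and 0.138 and 0.652 CPM in PL1.

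Of 28 genes of simple and luminal epithelium tested, 9 were lower and 0 higher in PLA4 than in PLA (1 to 18 calls), and 8 were higher and 0 lower in PL12 than in PL1 (0 to 20 calls). The median log2 changes were -1.23 and 1.39. In PL12 against PL1 no call held in all 8 fits, and 0 were left without either PL12 library. In PLA4 against PLA the 1 call that held in all 8 was that of the membrane serine protease Prss22 (-4.67 ± 0.53, adjusted p = 0.00283 by edgeR). Krt19, a keratin of simple epithelium, had 78.2 and 0.928 CPM in PLA4 and 803 and 811 CPM in PLA, against 1138 and 1385 CPM in PL12 and 0.357 and 0.917 CPM in PL1. As for Msln, PL12 was highest and PLA next. The PLA4 libraries were far apart, with replicate 2 level with PL1 replicate 2.

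Of 31 regulators of secretory and luminal cells, 8 were lower and 2 higher in PLA4 than in PLA (3 to 18 calls), and 7 were higher and 8 lower in PL12 than in PL1 (5 to 16 calls). Their medians were -0.39 and -0.19. Hnf4g, a nuclear receptor of gut epithelium, fell in PLA4 to 0 counts, against 0.991 and 1.17 CPM in PLA, and this call held in all 8 fits. The Notch receptor Notch3 and the Notch target Nrarp were higher in PL12 than in PL1 in all 8 fits, by 5.44 ± 0.67 (adjusted p = 0.00395 by edgeR) and 3.85 ± 0.29 (adjusted p = 0.0011). The Notch target Hes1 was lower in PL12 than in PL1 in all 8 fits (-2.29 ± 0.25, adjusted p = 0.00287 by edgeR). Notch2 was lower too (-1.29 ± 0.29, adjusted p = 0.0236 by edgeR), but its call did not hold in all 8 fits. Notch genes were thus called in both directions. The lung lineage factor Nkx2-1 was at 8.86 and 8.69 CPM in PL12 and at or below 0.194 CPM in every other library, so its levels did not follow those of Msln into PLA.

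Enzymes that build O-glycans on mucins were called in both directions. Of 30 tested, 9 were lower and 2 higher in PLA4 than in PLA (1 to 16 calls), and 8 were higher and 3 lower in PL12 than in PL1 (2 to 12 calls), with medians of -0.62 and 0.33. Gcnt3, which branches mucin glycans, had 0.310 and 0.00692 CPM in PLA4 and 2.03 and 2.25 CPM in PLA, against 107 and 98.4 CPM in PL12 and 0.138 and 0.238 CPM in PL1. Its higher level in PL12 than in PL1 held in all 8 fits (9.06 ± 1.12, adjusted p = 0.00406 by edgeR), as did the fall of Galnt12, an enzyme that starts these glycans, in PLA4 against PLA (-2.67 ± 0.33, adjusted p = 0.00344). Galnt6, from the same enzyme family, was high in PLA alone of the lines, at 251 and 233 CPM, against 12.2 and 0.665 CPM in PLA4, 0 and 0.0184 CPM in PL12 and 12.3 and 3.98 CPM in PL1.

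Among 25 tested relatives and partners of the genes, 6 were lower and 1 higher in PLA4 than in PLA (1 to 11 calls), and 7 were higher and 2 lower in PL12 than in PL1 (4 to 12 calls), with medians of -0.41 and 0.39. Egfr, the epidermal growth factor receptor, had 113 and 104 CPM in PLA4 and 249 and 259 CPM in PLA, against 480.4 and 433 CPM in PL12 and 148 and 120.0 CPM in PL1. It was lower in PLA4 than in PLA (-1.22 ± 0.15, adjusted p = 0.00343 by edgeR) and higher in PL12 than in PL1 (1.77 ± 0.15, adjusted p = 0.00153), and both calls held in all 8 fits. Erbb2, the partner of Muc4, was called in neither and ran from 69.2 to 121 CPM. The mesothelin relative Mslnl stayed at or below 0.205 CPM.

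Of 12 squamous and basal markers, 8 were lower in PL12 than in PL1 and 0 were higher (5 to 11 calls), with a median of -2.73. Those held in all 8 fits were Trp63, Sox2, Krt5, Krt6a and Dsg3. Trp63, the master factor of basal cells, had 29.2 and 26.3 CPM in PL12, against 381 and 373 CPM in PL1. In PLA4 against PLA, 3 were higher and 1 lower (2 to 7 calls), with a median of 0.53, and Trp63 was not called, at 306 and 386 CPM in PLA4 against 352 and 360.4 CPM in PLA. PLA thus had high Msln and mucins beside Trp63 within the range of the PLA4 and PL1 libraries, whereas PL12 had them beside low Trp63. Between the families, edgeR on counts summed per line called 0 of 18859 genes, with 4.6% at an unadjusted p under 0.05, while DESeq2 called 1.03% higher and 0.843% lower. On single libraries, the call in all 4 comparisons of a PLA with a PL line was made for 1.23% of genes higher and 0.767% lower. In the related lists it was made for 1 gene, the squamous cadherin Dsc3, which was higher in the PLA lines. That was 1 of 12 squamous and basal genes, against 0 in each other list. Those include 0 of 31 regulators, 0 of 30 O-glycan enzymes and 0 of 28 simple and luminal genes. A single call over these lists is no result about them.

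**Figure D4:**
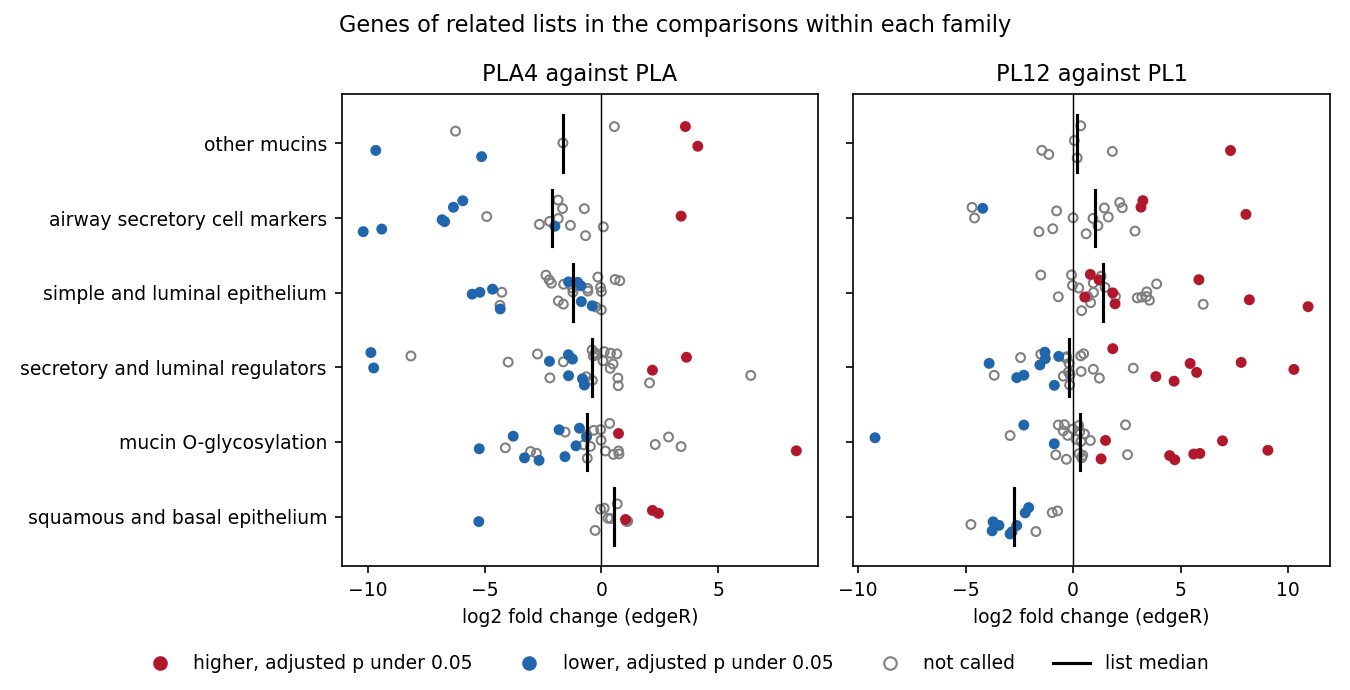
Log2 fold changes of the genes in 6 related lists in PLA4 against PLA (left) and PL12 against PL1 (right), with 1 point per gene, filled red where called higher, filled blue where called lower and open where not called, and a bar at the median of each list. The simple and luminal genes lie mostly below 0 on the left (median -1.23) and above 0 on the right (median 1.39), while the squamous and basal genes lie below 0 on the right (median -2.73).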

How the data were processed

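The deposited tables hold the authors' expected counts (fractional estimates per gene) and their TPM for 8 libraries. The submitters' processing notes list STAR, RSEM, FastQC and DESeq2, and the build GRCm38; versions, annotation and strand setting are not given in the sources used here. Of the expected counts, 14.2% were not whole, and all were rounded for tests. The labels' protocols name SMARTer cDNA and Nextera XT libraries, with no molecular identifiers mentioned, so floors (3 counts) cover counting error alone.

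CPM used TMM factors. Lines were compared with edgeR 4.0.16 (limma 3.58.1, R 4.3.3; quasi-likelihood test, filterByExpr with minimum count 10 and minimum total 15) in a model of the 4 lines, on 18648 genes, or on counts summed per line (2 lines against 2, 18859 genes). Calls need a Benjamini-Hochberg adjusted p under 0.05. The tests were also run on simulated counts in which the lines of a family shared the same mean for each gene. In these data the lines of a family differ, so that run does not show how the tests perform here.

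The genes and the lists were chosen with earlier results of these data known. Named list genes were up to 4 per list with a mean of at least 1 CPM, ranked by calls in all 4 family comparisons and then by p on summed profiles, and further ones needed to account for a list; those singled out for holding in all fits were chosen after their values were seen. Coordinates are from GENCODE M21, which matched 54349 identifiers with version, and upstream stretches from RefSeq (GRCm38.p6). A symbol listed more than once was taken at its row with most counts.

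Alternatives were DESeq2 1.42.0, its size factors, a stricter and no filter, a replicate block, leaving out each library or line (a lone library is assumed to vary like the other lines) and, for ratios of single genes, TPM and means of log2(CPM + 1) or log2(CPM + 0.1).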

Additional observations from a re-analysis of the deposited data

How the results depend on the processing

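The count of 6 genes lower in the PLA lines was 6 under every scaling and averaging run and without any 1 library. Leaving out a line, an alternative chosen after seeing the data, gave 0 without PL12, 8 without PLA, 5 without PLA4 and 6 without PL1. There were 256 alternative values for the ratios of single genes and, under scalings, averagings and single libraries left out, for that count. Of these, 181 stayed the same, 75 moved by more and 0 changed sign. A ratio was the same if it moved by less than the spread between libraries, and the count if it stayed within 1.5 times. Calls over all genes moved more. On summed profiles the 0 calls became 354 with DESeq2 and 1 with no filter on low counts, and stayed at 0 without any 1 library or line. Calls in all 4 family comparisons, 372 in the main test, were 861 with DESeq2 and 36 to 763 without 1 library. PLA4 against PL1 gave 1593 calls, 3830 with DESeq2 and 199 to 2648 without 1 library. Without 1 library the calls ran from 1090 to 6916 for PLA against PL1 (main 5100), from 2459 to 8564 for PLA against PL12 (7035), from 2454 to 7679 for PLA4 against PL12 (6709), from 1051 to 6618 for PLA4 against PLA (5414) and from 763 to 6128 for PL12 against PL1 (4419). The lists' 1 gene called in all 4 comparisons became 8 with DESeq2, 7 with no filter and 1 to 8 without 1 library. DESeq2's size factors and a stricter filter kept each of these counts within 1.5 times. The cause of these differences was not tested.

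The replicate numbers did not pair the libraries: deviations of replicate 1 from its line mean correlated between -0.194 and 0.0148 over line pairs. With the replicate block, 132 genes were called in all 4 comparisons and 547 in PLA4 against PL1. A gene at 0 counts in a line, such as Misp in PL1, has no ratio there beyond the floor.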
